A study of Mus musculus with 10 samples.

Results

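Interferon-stimulated genes are switched on when a cell senses an interferon, and 41 of them were followed here by gene symbol in 10 mouse RNA sequencing libraries. 39 of the 41 are among the 22064 genes of the tables for sorted immune cells, where Mx1 and Mx2 have no entry. The table for cultured oligodendrocyte precursor cells (OPCs, the progenitors of myelin-forming oligodendrocytes) has 19333 genes and holds 34 of the 41, without Ifit1, Oas1a, Oas2, Oas3, Oasl1, Mx1 and Zbp1. 33 genes are in both. The members were sorted by role into 4 receptor subunits, 4 signalling and feedback genes, 10 genes of the Ifit, Oas and Mx families, which are best known as targets of type I interferon, 5 genes of the Gbp and Irg families, best known as targets of interferon gamma, 4 sensors, 4 Ifitm genes and 10 other effectors.

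Type I interferons (alpha and beta) bind a receptor made of Ifnar1 and Ifnar2, and the kinases Jak1 and Tyk2 then activate a complex with Stat2 and Irf9 that binds the interferon-stimulated response element (ISRE). Interferon gamma, made mainly by T and natural killer cells, binds Ifngr1 and Ifngr2, and signalling through Jak1 and Jak2 then acts on the gamma-activated sequence (GAS). The target sets overlap widely, so the names type I-linked and gamma-linked are used here for gene families and not for a measured stimulus. In experimental autoimmune encephalomyelitis (EAE), an immune attack on myelin used to model multiple sclerosis, both interferon types are known to shape disease.

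The libraries fall into 4 groups. OPCs were purified by immunopanning (capture on antibody-coated dishes) and kept in culture with the mitogen PDGFAA for 3 days, 3 libraries from Olig2-Cre:Apc-fl/fl mice, in which Cre made by Olig2-expressing cells removes part of Apc, and 3 from Apc-fl/fl littermates without Cre, called wild type here. Spinal cord cells were sorted at day 18 of EAE from mice that all carried Pdgfra-CreER:Apc-fl/fl, 3 libraries of CD11b+Gr-1+NK1.1+ cells named cytotoxic macrophages and 1 library of CD4+ cells labelled Th1. No EAE library of another genotype and no library of unimmunised mice was used here, so the immune libraries give levels in diseased Pdgfra-CreER:Apc-fl/fl mice and no effect of disease or genotype. The labels give no age, and they do not say whether animals were pooled or whether the replicates came from separate animals, so the spread over libraries may be technical.

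Depth was between 23174908 and 23564215 estimated reads in the macrophage libraries and 3051730 in the library labelled Th1. 3 reads, the limit that a count of 0 allows, equal between 0.127 and 0.129 CPM (read counts scaled to a common library total) in the macrophage libraries and 0.983 CPM in the library labelled Th1, counting error only. In the macrophage libraries 13 neutrophil markers summed to between 433737 and 436824 TPM (reads corrected for gene length and scaled to a common sum), and 13 monocyte and macrophage markers to between 6947 and 7243. Klrb1c, which encodes the NK1.1 antigen used for the sort, was between 0.05 and 0.10 TPM there. These levels go against the name macrophage, and macrophage libraries means here the libraries that carry that label. The library labelled Th1 goes against its label, since 10 of its 11 listed T cell markers, Cd3e, Cd3d, Cd3g, Cd4, Tbx21 and Ifng among them, had no read, and Lck had 66.3 TPM. The same library held 24481 TPM of the neutrophil markers and 2595 TPM of the monocyte and macrophage markers, with Ly6g and Ly6c2 at 0 and C1qb at 971 TPM. The part of these other cell types in the results on members was not tested, and in such bulk samples fewer cells of a type and less RNA per cell cannot be told apart.

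The DNA just upstream of many members matches short motifs known from these pathways. RefSeq windows of GRCm38.p6, 250 bases before to 50 bases after each start site, were matched for 32 of the 41 genes and searched on both strands for an ISRE-type motif, GAAANNGAAA, and a GAS-type motif, TTCNNNGAA. The ISRE-type motif was present for 19 of 32 members (59.4%), against 3.99% of the 27025 genes with a window. The GAS-type motif was present for 12 of 32 members (37.5%), against 9.55% of all genes. The following stretches come from 4 type I-linked genes, from Isg15 and from 3 gamma-linked genes and are shown because the same letters recur in both families. Each reads 5′ to 3′ on the strand of its gene, ends before the start site, and has its ISRE-type matches in capitals, which read as TTTCNNTTTC where the motif lies on the opposite strand.
Ifit1, chr19:34640770-34640828, plus strand: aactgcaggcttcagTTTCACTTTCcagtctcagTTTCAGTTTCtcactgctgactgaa
Ifit3, chr19:34583358-34583431, plus strand: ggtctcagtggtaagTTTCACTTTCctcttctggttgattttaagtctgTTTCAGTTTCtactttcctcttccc
Oas1a, chr5:120907526-120907560, minus strand: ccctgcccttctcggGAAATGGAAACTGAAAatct
Oas3, chr5:120777710-120777749, minus strand: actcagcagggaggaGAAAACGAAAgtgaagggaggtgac
Isg15, chr4:156200860-156200911, minus strand: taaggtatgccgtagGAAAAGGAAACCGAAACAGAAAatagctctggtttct
Gbp3, chr3:142559984-142560029, plus strand: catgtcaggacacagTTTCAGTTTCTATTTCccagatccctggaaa
Gbp7, chr3:142530234-142530307, plus strand: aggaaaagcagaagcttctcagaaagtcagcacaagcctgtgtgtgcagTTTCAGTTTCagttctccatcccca
Igtp, chr11:58199496-58199546, plus strand: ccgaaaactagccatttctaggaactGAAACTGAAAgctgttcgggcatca

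Ifit1 and Ifit3 each hold a pair of separate matches, and their second matches have the same 10 letters as the match in Gbp7. In Oas1a, Isg15 and Gbp3 the matches overlap and share 4 letters, so a run of repeated GAAA or TTTC units counts more than once. Igtp and Gbp7 also hold a GAS-type match within the printed stretch, in lower case. By class, the ISRE-type motif was found for 5 of 5 gamma-linked genes and for 4 of 7 type I-linked genes with a window, and the GAS-type motif for 2 of 5 and 2 of 7. 0 of 4 receptor genes had the ISRE-type motif, and 9 members had at least 2 matches in a window. The families are thus not separated by these letters. A match describes the sequence and is not a measured binding site.

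**Figure D1:**
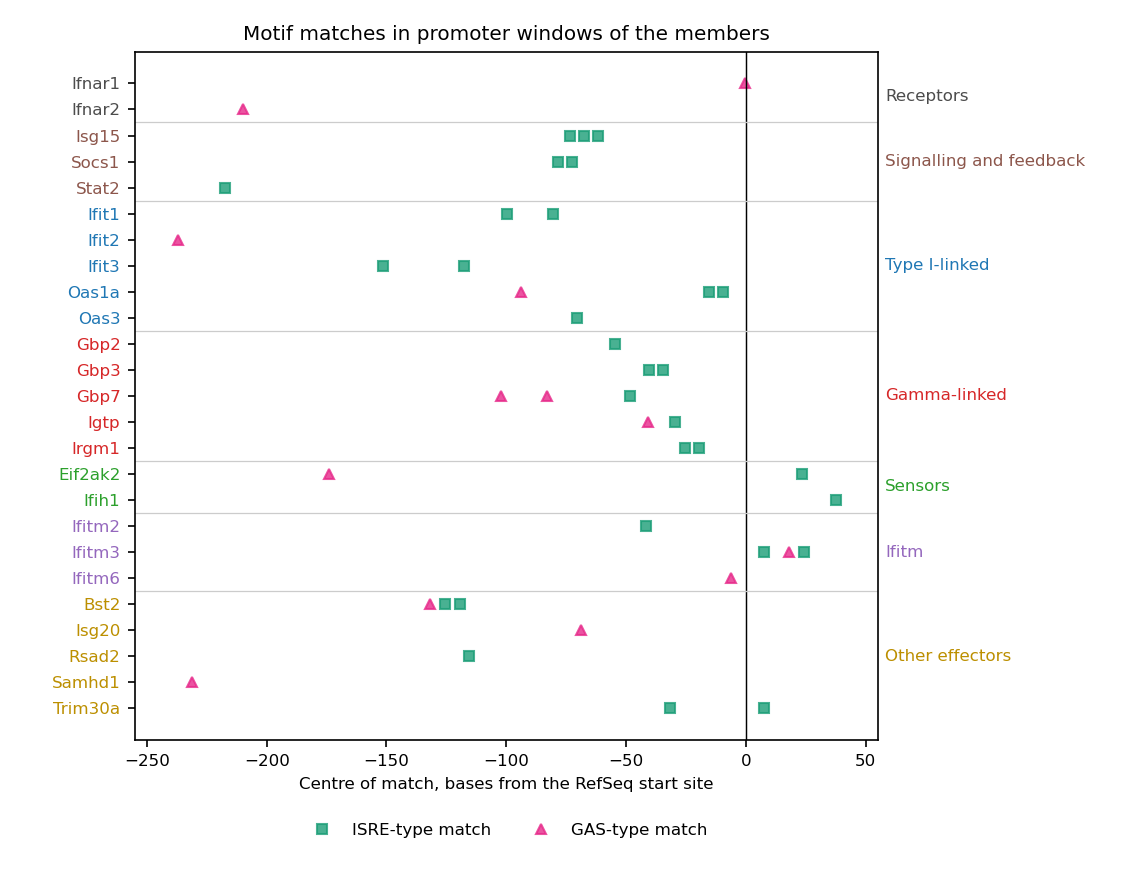
Centres of ISRE-type (squares) and GAS-type (triangles) matches in bases from the RefSeq start site, for members with at least 1 match, grouped by role. Where a gene has several windows all are drawn. The gamma-linked ISRE-type matches lie close upstream of the start site, from Gbp2 at bases -59 to -50 to Irgm1 at bases -24 to -15. Type I-linked matches lie on both sides of these, from Ifit3, beginning at base -156, to Oas1a at bases -14 to -5.

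In the macrophage libraries 37 of the 39 measured members reached a mean of at least 1 TPM (94.9%), against 6613 of all 22064 genes (30.0%). The 2 below were Ifit2, with 0.80, 0.64 and 0.72 TPM, and Ifi44, between 0.11 and 0.15 TPM. The members together held between 2.27% and 2.30% of all TPM, and the 4 Ifitm genes made up between 95.8% and 95.9% of that. The 3 libraries gave close values, with a median coefficient of variation of 2.51% over the members at 1 TPM or more and a highest one of 8.74%. Over all genes the 3 libraries differed from each other by more than counting noise (chi-square per degree of freedom 1.29 to 2.54), so no library was a repeat deposit of another, while spread from library preparation alone is not set apart by this check.

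The Ifitm genes encode small membrane proteins, several of which hinder virus entry, and they stood at the top of the member set. Ifitm3 had 8276.61, 8161.45 and 8240.35 TPM, rank 11 among the 22064 genes. Ifitm2 had 5842.09, 6062.03 and 5944.29 TPM and Ifitm1 had 4092.52, 3799.16 and 3893.16 TPM. Ifitm6 followed with 3853.60, 3723.98 and 3775.35 TPM. Ifitm3 exceeded Ifitm2, and Ifitm2 exceeded the other two, in every library. Ifitm1 (mean 3928 ± 150 TPM, SD, n = 3) exceeded Ifitm6 (3784 ± 65 TPM) in each library although their ranges over libraries overlapped. All 4 genes lie on chromosome 7 between 140954837 and 141016892 (GRCm38.p6). Ifitm2 holds an ISRE-type match upstream of its start site, those of Ifitm3 lie after it, Ifitm6 has a GAS-type match at bases -10 to -2 only, and Ifitm1 has neither.

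The receptor subunits were unequal. Ifnar2 had 82.66, 81.68 and 86.83 TPM, whereas its partner Ifnar1 had 1.45, 1.26 and 1.29 TPM. The gap was smaller without length correction, at 167 CPM for Ifnar2 and 18.0 CPM for Ifnar1 in the mean. Ifngr2 had 33.59, 36.71 and 37.13 TPM and Ifngr1 had 24.71, 23.66 and 23.67 TPM. In every library the order was Ifnar2, Ifngr2, Ifngr1 and Ifnar1, with no overlap between neighbours. Ifnar2, Ifnar1 and Ifngr2 are neighbours on chromosome 16, between 91372783 and 91564007, and Ifngr1 lies on chromosome 10.

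Among the signalling and feedback genes Isg15, a ubiquitin-like protein attached to other proteins, had 137.85, 136.81 and 134.15 TPM. Usp18, which removes Isg15 and restrains the type I receptor, had 5.65, 5.20 and 5.05 TPM. Socs1, an inhibitor of the receptor kinases, had 4.74, 5.52 and 5.51 TPM. Stat2 had 1.07, 0.98 and 1.08 TPM, so that Isg15 lay far above the other 3 and Usp18 and Socs1 overlapped. Of the sensors, Zbp1, which binds left-handed nucleic acid and can trigger cell death, had 194.80, 192.30 and 195.43 TPM. Dhx58 and Ifih1, receptors of double-stranded RNA, had 3.48 ± 0.26 and 1.38 ± 0.08 TPM (SD, n = 3), and Eif2ak2, the kinase PKR, had 2.16 ± 0.02 TPM.

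Of the other effectors Bst2 (tetherin, which holds budding viruses at the cell surface) had 105.04, 101.46 and 104.42 TPM. Rtp4 had 73.60, 74.24 and 71.81 TPM, and Samhd1, which depletes the nucleotides that viruses copy from, had 68.60, 68.20 and 69.29 TPM. Xaf1, linked to cell death, had 34.39, 30.49 and 32.12 TPM and overlapped in level with the exonuclease gene Isg20, at 32.05, 31.39 and 31.03 TPM. Trim30a had 12.40 ± 0.09 TPM (SD, n = 3). Rsad2 (viperin) had 2.64 ± 0.19 TPM, Parp14 1.81 ± 0.13 TPM and Iigp1, a GTPase of the Irg family, 1.38 ± 0.07 TPM. Genes of this class thus ranged from Bst2 down to Ifi44 over nearly the whole span of the set outside the Ifitm genes.

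**Figure D2:**
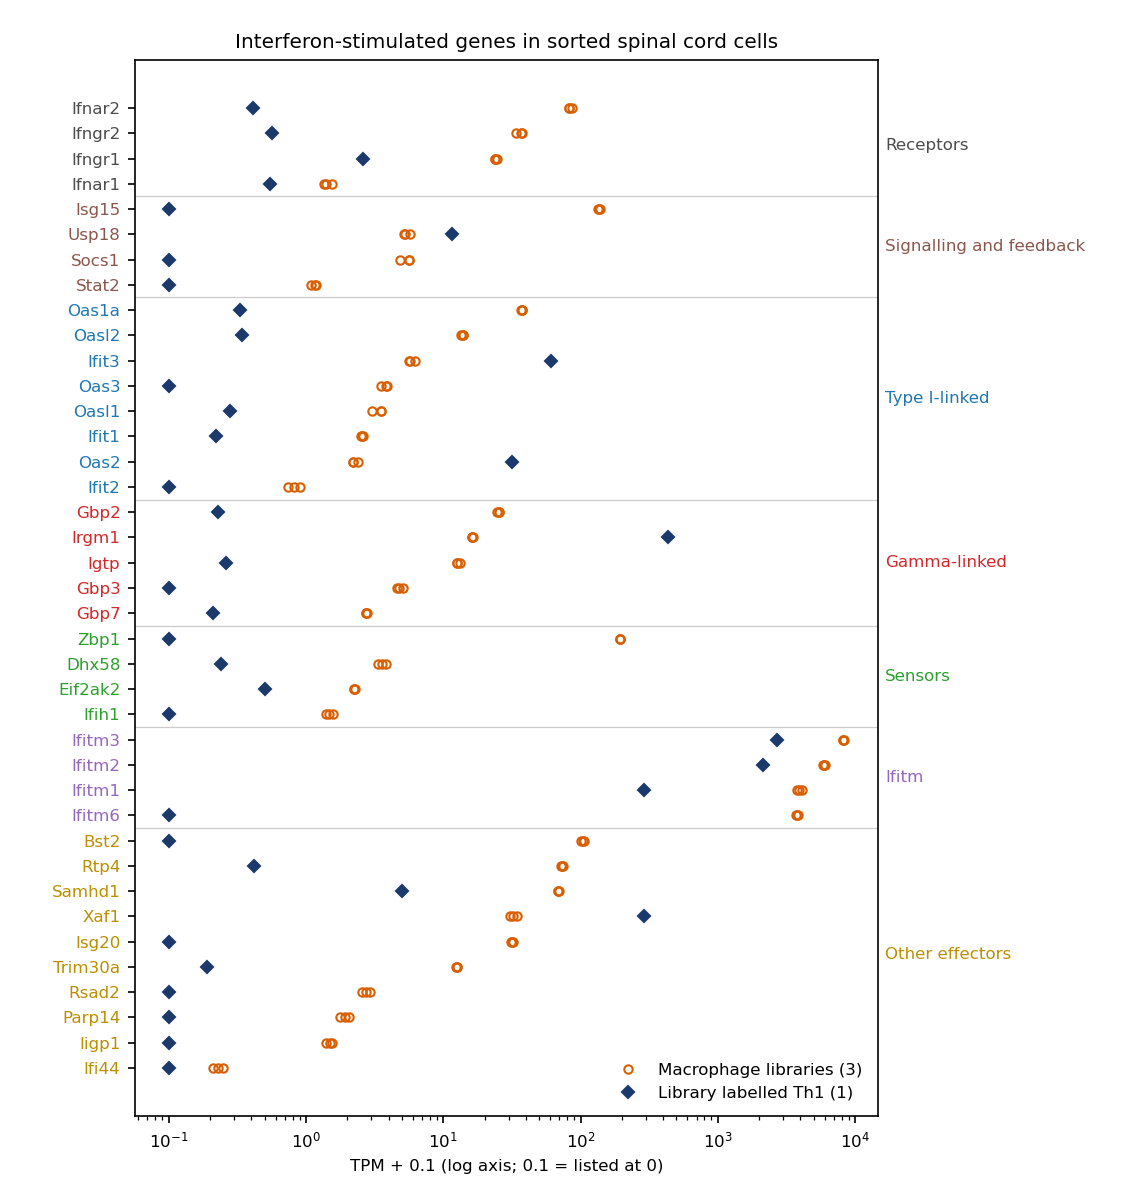
TPM + 0.1 on a log axis for the 39 measured members, by role, in the 3 macrophage libraries (open circles) and the library labelled Th1 (diamonds). The macrophage circles lie almost on top of each other for most genes, the Ifitm genes are highest, and most diamonds lie far to the left, with 15 genes at no read.

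The type I-linked and gamma-linked families were compared within each library. The 2',5'-oligoadenylate synthetase gene Oas1a, which starts the destruction of viral RNA, led the type I-linked class with 37.57, 37.26 and 36.50 TPM. Oasl2 had 13.37, 13.82 and 13.81 TPM and Ifit3, of a family that blocks translation of viral RNA, had 5.57, 5.63 and 6.12 TPM. Oas3, Oasl1, Ifit1 and Oas2 lay between 2.09 and 3.79 TPM, and Ifit2 was lowest. In the gamma-linked class Gbp2, a GTPase that attacks vacuoles holding microbes, had 24.68, 25.28 and 25.44 TPM. The GTPase genes Irgm1 and Igtp had 16.21, 16.12 and 16.30 TPM and 12.59, 13.05 and 12.51 TPM. Gbp3 had 4.49, 4.67 and 4.96 TPM and Gbp7 had 2.67, 2.65 and 2.62 TPM.

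The median of the 8 measured type I-linked genes was between 3.35 and 3.57 TPM and that of the 5 gamma-linked genes between 12.5 and 13.1 TPM. On the log2(TPM + 0.1) scale the type I-linked median minus the gamma-linked median was -1.89, -1.84 and -1.84, a mean of -1.86 ± 0.03 (SD, n = 3). The families overlapped widely, since Oas1a exceeded every gamma-linked gene and Gbp7 lay below 5 of the type I-linked genes by mean level. Their sums had the other order, with 68.6 to 69.2 TPM for the 8 type I-linked and 60.6 to 61.8 TPM for the 5 gamma-linked genes. The sums run over unequal numbers of genes, so their order is not one of level per gene. The difference was -1.04 between class means in place of medians and -1.15 with Iigp1, which also belongs to the Irg family, added to the gamma-linked class. It was a description over 13 genes and no test was made over genes. Genes of 1 chromosomal cluster differed in level. Oas1a exceeded Oas2 and Oas3 by 37.1 to 2.16 and 3.66 TPM in the mean, and all 3 lie on chromosome 5 between 120730333 and 120907544.

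**Figure D3:**
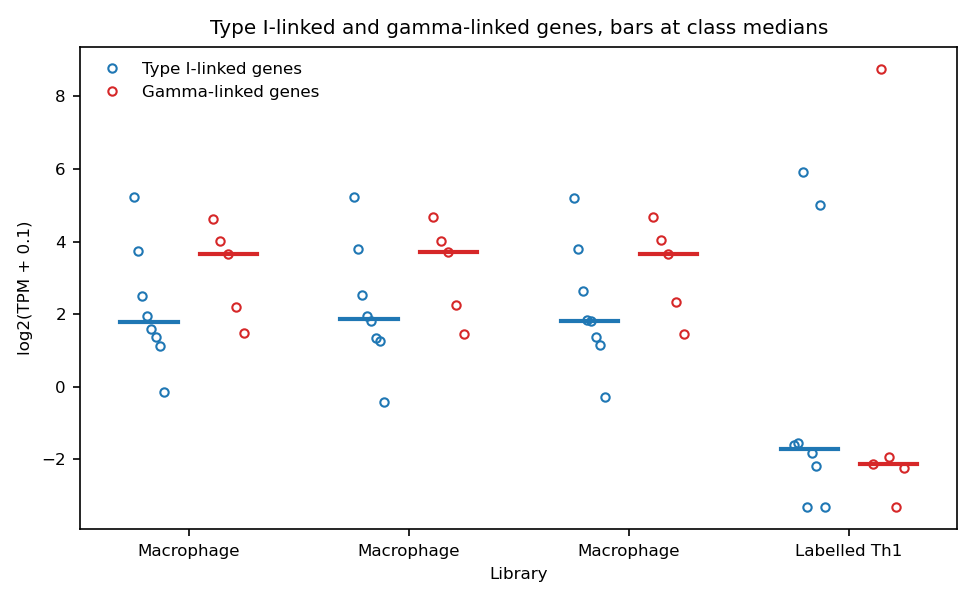
log2(TPM + 0.1) of each type I-linked (blue, 8 genes) and gamma-linked gene (red, 5 genes) in each library, with bars at the class medians. In the 3 macrophage libraries the gamma-linked bar is higher by 1.84 to 1.89 with overlapping points, and in the library labelled Th1 3 genes stand far above all others.

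The ligands of the pathway were nearly absent from the sorted cells. Of 19 interferon genes listed, 16 had no read in any macrophage library, and the summed level was between 0.13 and 0.27 TPM. Ifng had between 4 and 6 reads per macrophage library (0.09 to 0.13 TPM), Ifnz at most 6 and Ifnb1 at most 2. None of the 19 had a read in the library labelled Th1. The kinases, STATs and interferon regulatory factors that carry the signal, 9 genes, all reached 1 TPM in the macrophage libraries, among them Irf1 at 26.7 ± 0.60 and Irf7 at 21.9 ± 0.33 TPM (SD, n = 3). Of 8 inhibitor genes 7 did so, with the phosphatase genes Ptpn6 and Ptpn1 highest at 39.4 ± 0.34 and 26.9 ± 0.09 TPM and Socs3 next at 13.6 ± 0.68 TPM. Among 36 measured further genes tied to type I interferon 32 reached 1 TPM, led by Ifi27l2a (2224 ± 45 TPM), Ly6e (1654 ± 13 TPM) and Ifi27 (46.2 ± 1.4 TPM). Among 21 further genes tied to interferon gamma 13 did so, led by the immunoproteasome subunits Psmb8 (312 ± 6.7 TPM), Psmb9 (242 ± 5.0 TPM) and Psmb10 (117 ± 4.5 TPM).

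The library labelled Th1 held reads for 24 of the 39 members, 12 with 1 to 3 reads and 12 with more. Of the 37 members at 1 TPM or more in the macrophage libraries, 67.6% had at most 3 reads in it, against 68.4% of all 6613 such genes, shares that lie close together. At 10 TPM or more in the macrophage libraries, 65.0% of 20 members and 49.9% of 2217 genes had no more than 3 reads. Of the same genes, 5 of 20 members and 563 of 2217 genes had no read, shares that lie close together. Over 50 reads were found for 6 of 20 members and 848 of 2217 genes. The gap thus depends on the read limit, rests on few members and was not tested. Of the 6534 genes with a read in this library, 3726 had 1 to 3 and 1550 had over 100. The members divided in the same manner. Ifitm3 had 4393 reads (2682.78 TPM), Ifitm2 3431 reads (2130.59 TPM), Irgm1 2714 reads (432.98 TPM) and Xaf1 913 reads (289.01 TPM). Ifitm1 had 436 reads (291.47 TPM), Oas2 381 reads (31.77 TPM), Ifit3 347 reads (60.34 TPM), Usp18 60 reads (11.42 TPM) and Samhd1 57 reads (4.89 TPM). Ifngr1, Ifnar1 and Eif2ak2 followed with 16, 10 and 8 reads. Genes of 1 family and 1 chromosomal cluster fell on either side, with Ifit3 at 347 reads beside Ifit1 with 1 and Ifit2 with none, and Oas2 at 381 beside Oas1a with 1 and Oas3 with none. Irgm1 at 2714 reads stood apart from Igtp, also on chromosome 11, with 1 read.

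Differences from the macrophage libraries were tested with edgeR's quasi-likelihood test over 11447 genes, with Benjamini-Hochberg adjustment, and a call needed adjusted p under 0.05 and a change of 4-fold or more. The spread came from the macrophage libraries, and the lone library was assumed to vary like them, so its own spread is unknown and the calls compare these 4 libraries, not cell types. 4 of 39 members were called higher in the library labelled Th1 (10.3%, against 13.7% of all genes) and 29 lower (74.4%, against 54.6% of all genes). The median log2 fold change was -6.49 over the members and -5.61 over all genes. These shares and medians are not matched for level in the macrophage libraries. The shares among genes at 1 TPM or more given above have a common lower limit but are not matched for level either. Among those genes the median was 12.7 TPM for the members and 4.73 TPM for all genes. They also depend on scaling, since the all-gene median was -6.25 with library sizes alone and -4.32 with DESeq2 size factors. The member medians were then -7.09 and -4.98. With DESeq2 size factors 17.6% of all genes were called higher and 30.1% lower, and with library sizes alone 9.59% and 71.3%.

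The 4 members called higher were Irgm1, Oas2, Ifit3 and Xaf1. Irgm1 averaged 61.3 CPM in the macrophage libraries and had 889 CPM in the library labelled Th1, a log2 fold change of 5.35 (SE 0.05, edgeR adjusted p = 8.77e-29) that ranged from 3.86 to 6.87 over scalings. The log2 fold changes given for these genes are TMM-scaled, whereas CPM is scaled to library size, so their ratios differ. Oas2 had 15.8 and 125 CPM and a log2 fold change of 4.47 (SE 0.11). It was 2.98 with library sizes alone and 5.99 with DESeq2 size factors. Ifit3 had 20.4 and 114 CPM and a log2 fold change of 3.97 (SE 0.11), which was 2.48 and 5.49 with those scalings. Xaf1 had 94.7 and 299 CPM and a log2 fold change of 3.16 (SE 0.07, edgeR adjusted p = 1.28e-21), which was 1.66, under 4-fold, with library sizes alone. The 4 genes come from 3 roles, 2 being type I-linked and 1 gamma-linked. The sources used here do not give how the authors split reads between near-identical copies, and Ifit3b, a close copy of Ifit3, had 4 reads in this library, so the Ifit3 value is uncertain in that respect.

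6 members were not called. Ifitm3 (log2 fold change -0.82) and Ifitm2 (-0.66) were past the adjusted p but under 4-fold, and with DESeq2 size factors both signs turned, to 0.70 and 0.86. Ifnar1 and Eif2ak2 (-0.96 and -1.46) turned sign with scaling too. Usp18 had a log2 fold change of 1.76 (SE 0.22), which was 0.26 with library sizes alone and 3.27, past 4-fold, with DESeq2 size factors. Ifi44 had no read against 2 predicted at the macrophage CPM. Ifitm1, Samhd1 and Ifngr1 were called lower by edgeR with log2 fold changes of -2.88 (SE 0.07), -3.05 (SE 0.12) and -2.61 (SE 0.24), and all 3 fell under 4-fold with DESeq2 size factors, at -1.36, -1.53 and -1.10.

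For genes without a read in the library labelled Th1 a fold is a lower bound, taken at 3 reads in that library and as the smallest over the 3 scalings. Ifitm6 was at least 351-fold lower, with 7592 reads predicted at the macrophage CPM and none found. Zbp1 was at least 34.4-fold lower, Isg15 at least 20.8-fold, Bst2 at least 17.4-fold, Isg20 at least 6.78-fold and Oas3 at least 4.61-fold lower. The bounds of Parp14, Gbp3, Rsad2, Ifih1, Socs1, Stat2 and Iigp1 were between 1.11 and 3.65, and for Ifit2 the depth allowed none. The edgeR estimate put these genes past the 4-fold limit of a call, which these bounds do not show. Genes with 1 to 3 reads have wide counting intervals. Gbp2 was 121-fold lower (95% interval 21.7 to 4775), Oas1a 120-fold (21.5 to 4725), Rtp4 142-fold (25.6 to 5626) and Trim30a 95.3-fold (17.1 to 3764). Ifnar2 was 90.3-fold lower (25 to 746), Ifngr2 48.5-fold (16.6 to 235), Igtp 49.4-fold (8.87 to 1951) and Oasl2 36.9-fold (10.2 to 304). Dhx58, Gbp7, Oasl1 and Ifit1 were 16.4-, 15.3-, 12.9- and 12.8-fold lower, with lower ends between 2.30 and 4.23. For Dhx58, Oasl1 and Ifit1 these ends, 2.94, 2.32 and 2.30, lie under the 4-fold limit too. The ratios and intervals for 1 to 3 reads are TMM-scaled. With DESeq2 size factors the ratios were smaller, from 55.8 for Rtp4, 47.3 for Gbp2 and 46.8 for Oas1a down to 5.01 for Ifit1. Those of Igtp, Dhx58, Gbp7 and Oasl1 were 19.3, 6.43, 5.98 and 5.06. The lower ends of the intervals fall with that scaling too, so more genes than those named may then have an end under 4-fold.

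**Figure D4:**
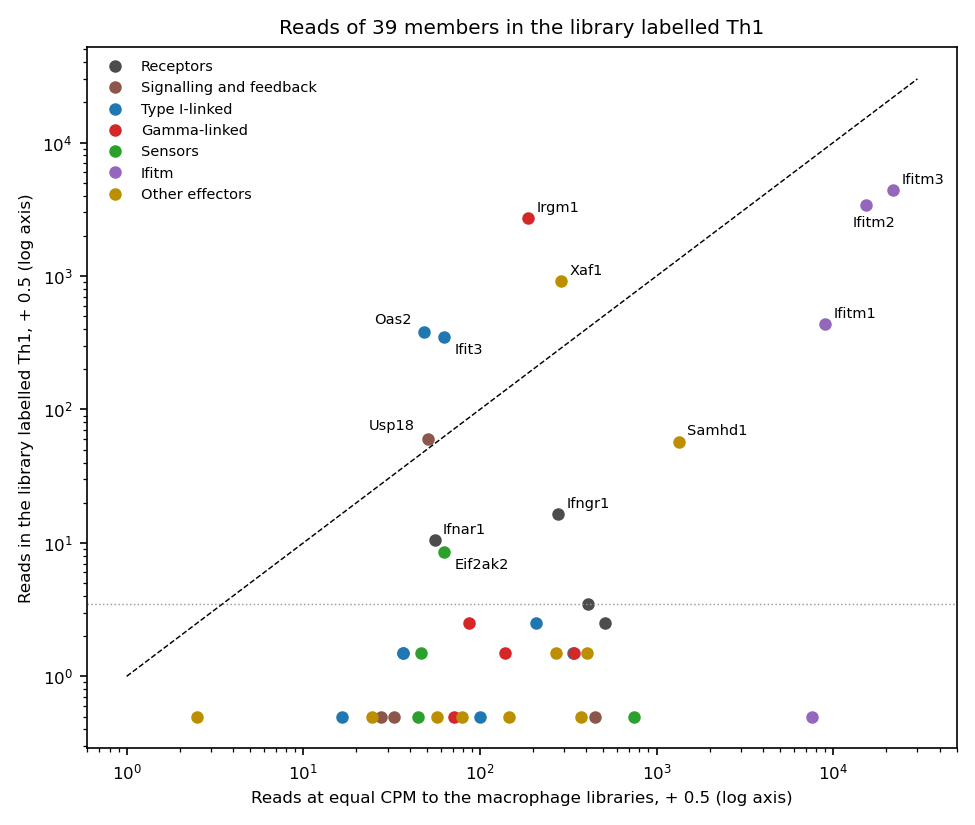
Reads of each of the 39 members in the library labelled Th1 against the reads predicted from its mean macrophage CPM, both + 0.5 on log axes, coloured by role. The dashed line marks equal CPM and the dotted line the limit of 3 reads. Irgm1, Oas2, Ifit3 and Xaf1 lie well above the dashed line, and Ifitm6 has no read against 7592 predicted.

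By class the median log2(TPM + 0.1) of the type I-linked genes in the library labelled Th1 minus that of the gamma-linked genes was 0.40, from medians of 0.205 and 0.13 TPM that stand for 1 read. The sums were 92.9 TPM for the type I-linked genes, nearly all from Ifit3 and Oas2, and 433 TPM for the gamma-linked genes, nearly all from Irgm1. The median difference was -0.19 between class means in place of medians, so its direction is not set by these data. The rest of the pathway is given beside the 54.6% of all genes that were called lower in this comparison and the 13.7% called higher. Of 9 JAK, STAT and regulatory factor genes 8 were called lower by edgeR, and Stat3, which carries signals of other cytokines, was higher (5261 reads, log2 fold change 6.29, SE 0.04). Of 8 inhibitors 6 were lower by edgeR, and of 19 tested gamma-tied genes outside the member set 17 were lower. Of 36 tested type I-tied genes outside the member set 31 were lower and 1, Ifi209, was higher (1784 reads, log2 fold change 4.94, SE 0.05).

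In the OPC cultures no member was called different between Apc-deleted and wild-type cells at an adjusted p under 0.05. The authors' deposited table calls 76 of its 19333 genes higher (0.393%) and 30 lower (0.155%) with Apc deleted, and 0 of 34 members either way. At an unadjusted p under 0.05 it marks 3 of 34 members and 701 of all genes (3.63%). The authors' deposited table gives 1 comparison over 3 libraries per genotype, with a mean of normalized counts per gene and no value per library. It does not name its numerator, so the sign was set from 4 Wnt targets, Notum, Sp5, Lef1 and Axin2, taken as higher when Apc is lost, and this reading of the sign is no independent evidence for it. Apc itself has a log2 fold change of -0.14 (SE 0.13) in the authors' deposited table, which has no separate value for the deleted part of the gene. The reason for this small change was not tested.

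Most members were weakly expressed in these cultures. The median mean normalized count was 19.7 over the 34 members and 135 over all genes of the authors' deposited table, and 22 members had a mean under 50. Per kilobase of exon, with lengths from GENCODE M21, Ifitm3 led with 495 normalized counts (rank 1638 in the authors' deposited table). Ifngr1 with 111, Ifitm2 with 108, Ifngr2 with 104, Ifit2 with 72.1, Ifnar1 with 69.4 and Ifnar2 with 68.3 normalized counts per kilobase followed in the authors' deposited table. The median per kilobase was 10.1 over the members and 35.8 over all genes of the authors' deposited table. Receptor genes were thus among the better expressed members in OPC cultures, and Ifnar1 and Ifnar2 lay side by side there, unlike in the macrophage libraries. Without length correction Ifnar1 and Ifnar2 had mean normalized counts of 412 and 227 in the authors' deposited table. The macrophage libraries had 18.0 and 167 CPM. Levels are not comparable in unit between the cultures and the sorted cells, so this compares order only.

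The 4 receptor genes were measured with standard errors between 0.14 and 0.22 in the authors' deposited table, below the member median of 0.44. Ifnar1 has a mean normalized count of 412 and a log2 fold change of -0.11 (SE 0.15) in the authors' deposited table, and Ifnar2 one of 227 with 0.04 (SE 0.21). For the gamma receptor the authors' deposited table gives Ifngr1 a mean of 315 with 0.18 (SE 0.22) and Ifngr2 a mean of 393 with -0.19 (SE 0.14). All 4 intervals of 95%, computed from the authors' deposited table, lie within 2-fold either way. Of the 34 members 15 have such an interval, and for the other 19 the authors' deposited table cannot show a change of 2-fold to be absent.

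Samhd1 had the smallest p of the members. Its mean normalized count is 419 and its log2 fold change 0.38 (SE 0.16, 95% interval 0.07 to 0.68, p = 0.015, adjusted p = 0.846) in the authors' deposited table. Mx2, an antiviral GTPase, has a mean of 34.5, a log2 fold change of -0.82 (SE 0.36, 95% interval -1.52 to -0.12) and p = 0.0214 in the authors' deposited table. Socs1 has a mean of only 14.5, a log2 fold change of 1.32 (SE 0.58, 95% interval 0.19 to 2.46) and p = 0.0226 in the authors' deposited table. The adjusted p is 1.0 for Socs1 and Mx2 in the authors' deposited table, so none of the 3 passed. Beside these values, 10 of 11 measured monocyte and macrophage markers have a positive log2 fold change in the authors' deposited table, as do 9726 of all 19333 genes. Their median is 0.17, and Cd68 is called higher (1.54, SE 0.36, adjusted p = 0.00729). Of 8 microglia markers 4 are positive and 4 negative in the authors' deposited table, with a median of 0.01. The part of such cells in the Samhd1 value was not tested. All 8 OPC markers were measured, with a median of 763 normalized counts per kilobase in the authors' deposited table, and 8 neuronal markers had a median of 4309, so markers of another cell type were high in the cultures.

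Of the type I-linked genes only 4 are in the OPC table. The authors' deposited table gives Ifit2 a mean of 283 and a log2 fold change of -0.17 (SE 0.16), Oasl2 15.8 and -0.76 (SE 0.53), and Ifit3 5.30 and 0.23 (SE 0.87). Among gamma-linked genes Gbp7 leads with a mean of 198 and a log2 fold change of -0.17 (SE 0.18), and Gbp3 has 34.9 and -0.40 (SE 0.35) in the authors' deposited table. Irgm1, Gbp2 and Igtp have means of 19.2, 18.2 and 14.2 and log2 fold changes of 0.17 (SE 0.51), -0.05 (SE 0.46) and 0.14 (SE 0.50) in the authors' deposited table. The median log2 fold change was -0.46 for the 4 type I-linked and -0.05 for the 5 gamma-linked genes of the authors' deposited table. The difference of -0.41 describes these 9 genes of the authors' deposited table, and no test was made over genes. It was -0.12 without Oasl2 and -0.70 over members with a mean of at least 10, beside a median standard error of 0.46. Within the families the order of levels was not that of the macrophage libraries. Per kilobase Gbp7, with 35.2 normalized counts, exceeded Gbp3 with 10.7 and Gbp2 with 7.22 in the authors' deposited table. In the macrophage libraries Gbp2 was highest and Gbp7 lowest by TPM. Without length correction Gbp3 was lowest there, with 23.3 CPM against 28.2 CPM for Gbp7. Ifit2, lowest of its class in the macrophage libraries, was highest of the 4 measured in the authors' deposited table, with 72.1 normalized counts per kilobase against 3.04 for Ifit3.

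The remaining members gave no call. Stat2 has a mean normalized count of 136 and a log2 fold change that rounds to 0.00 (SE 0.20) in the authors' deposited table, while Isg15 has 13 and 0.16 (SE 0.53) and Usp18 12.5 and -0.05 (SE 0.53). The Ifitm genes range from -0.27 (Ifitm1, SE 0.47) to 0.36 (Ifitm6, SE 0.61) in the authors' deposited table, with Ifitm3 at 336 normalized counts and 0.12 (SE 0.15). The 3 sensors measured range from -0.22 (Ifih1, SE 0.37) to 0.00 (Eif2ak2, SE 0.23) in the authors' deposited table. Other effectors range from -0.63 (Isg20, SE 0.59) to 0.38 (Samhd1) in the authors' deposited table, with Rsad2 at 112 normalized counts and 0.04 (SE 0.20). Over the 34 members 16 log2 fold changes are positive and 18 negative, with a median standard error of 0.44 against 0.23 over all genes of the authors' deposited table.

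**Figure D5:**
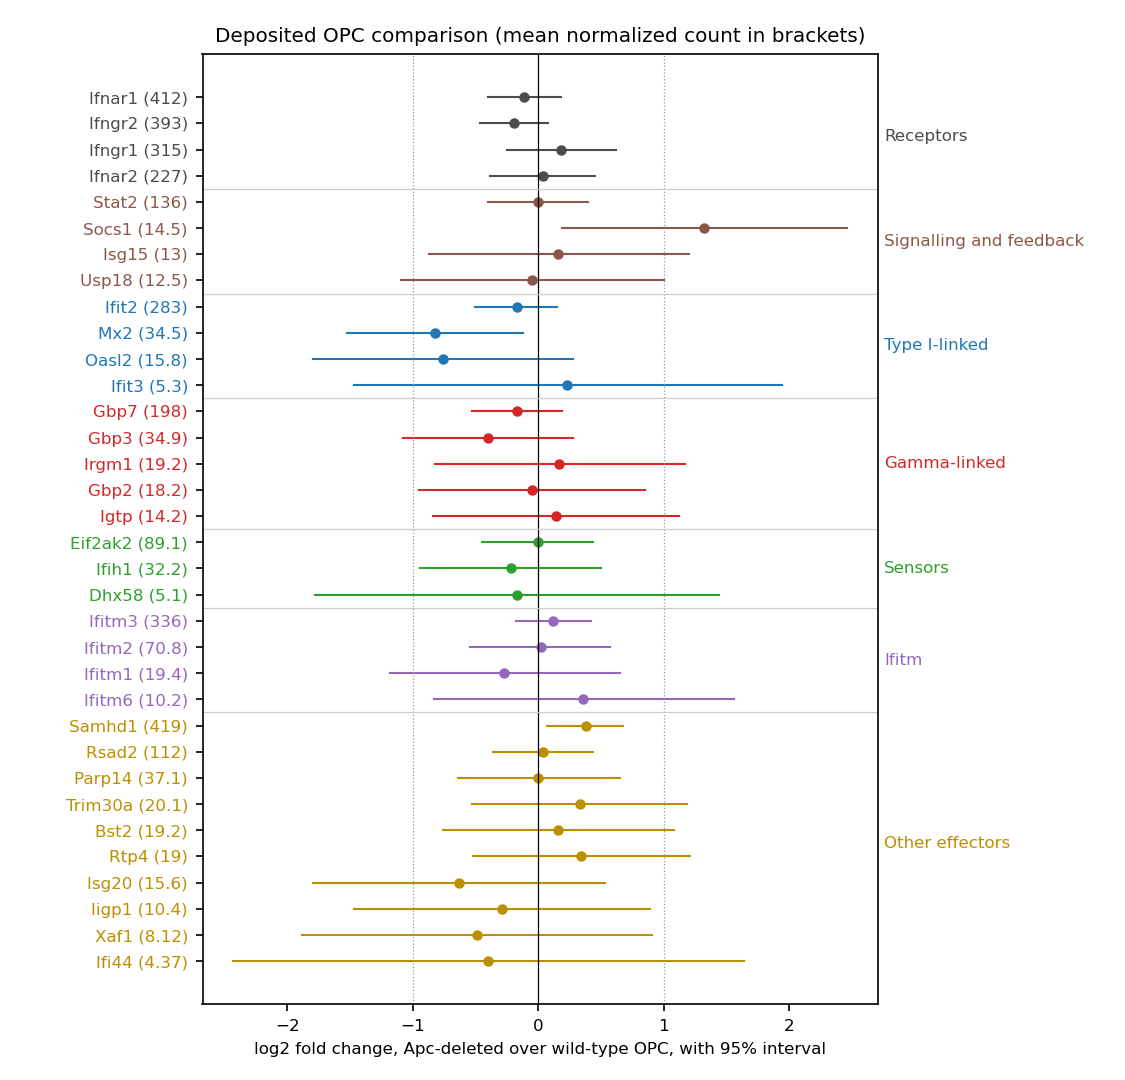
Log2 fold change of Apc-deleted over wild-type OPC cultures for the 34 members of the authors' deposited table, with 95% intervals computed from its standard errors, by role, and the mean normalized count in brackets. Dotted lines mark 2-fold either way. The receptor intervals are narrow and lie inside the dotted lines, those of weakly expressed genes such as Ifi44 are wide, and the intervals of Samhd1, Socs1 and Mx2 do not reach 0.

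The rest of the pathway had no call in the OPC comparison either, where few genes were called at all. No interferon gene of the list is in the OPC table. At adjusted p under 0.05 the authors' deposited table calls 0 of 9 JAK, STAT and regulatory factor genes, 0 of 8 inhibitors, 0 of 31 further type I-tied and 0 of 11 further gamma-tied genes. Against shares of 0.393% and 0.155% of all genes, lists of this size give little room for a call. At an unadjusted p under 0.05, which 3.63% of all genes pass, 1 gene of these lists is marked, Irf8, with a log2 fold change of 0.63 (SE 0.30, p = 0.0377) in the authors' deposited table. Socs3, a feedback inhibitor related to Socs1, has a log2 fold change of 1.06 (SE 0.57, p = 0.0628) at a mean of 12 in the authors' deposited table. Tap1, a peptide transporter gene tied to interferon gamma, has a mean of 106 and a log2 fold change of 0.43 (SE 0.24, p = 0.0693) in the authors' deposited table.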

How the data were processed

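RNA was extracted with Trizol and sequenced as read pairs on the Illumina HiSeq platform, per the labels' protocols. The submitters' processing notes name GRCm38 as the genome build. Aligner, counting tool and the treatment of reads shared by gene copies: not given in the sources used here. For the OPC cultures the authors deposited, per the file headers, a table of 1 comparison with a signal (the mean of normalized counts), a log2 fold change and its standard error, a test statistic (a score, log2 fold change over standard error) and a p-value, raw and adjusted. The sign was turned to Apc-deleted over wild type. For the immune cells the authors deposited TPM and estimated counts, per the file headers. Blanks were taken as 0, estimated counts were rounded, and 8 columns of values per sample were not used. Macrophage column codes match no label, so these libraries carry a group and no number.

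For the library labelled Th1 against the macrophage libraries, counts were filtered with filterByExpr, scaled by TMM and tested by quasi-likelihood in edgeR 4.0.16, with Benjamini-Hochberg adjustment over all genes tested. The script was tested first on simulated data in which few genes changed, so that test does not cover the choice of scaling in this comparison. DESeq2 1.42.0 gave alternative size factors and an alternative test. Folds for 1 to 3 reads carry exact Poisson intervals of 95%, and intervals and the limit of 3 reads cover counting error only. OPC intervals are the deposited log2 fold change and standard error with a normal approximation. TPM medians used a pseudocount of 0.1. For 99.81% of OPC identifiers a gene length was found in GENCODE M21; coordinates and promoter windows come from RefSeq (GRCm38.p6). Software was R 4.3.3 and Python 3.11.15 with scipy 1.17.1, numpy 2.4.6, matplotlib 3.10.9 and pandas 2.3.3. Members, roles and lists were chosen with earlier results of these data known. All members are named. Of other pathway genes those called higher, the 3 highest in the macrophage libraries and those with the smallest p in the OPC table were eligible, and lower calls are given as counts. 1 gene that this rule names is not reported here. Alternatives covered scaling, test, filter, fold limit, pseudocount, class make-up and each macrophage library left out.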

Additional observations from a re-analysis of the deposited data

How the results depend on the processing

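The type I-linked minus gamma-linked difference of median log2(TPM + 0.1), -1.86 in the macrophage libraries, was -1.63 with a pseudocount of 1 TPM, -1.04 between means, -1.15 with Iigp1 added to the gamma-linked class and -2.05 without Oasl1 and Oasl2. Leaving out 1 macrophage library gave -1.87 to -1.84. In the library labelled Th1 the value of 0.40 was 0.09 and 0.61 with pseudocounts of 1 and 0.01 TPM, -0.19 between means, 0.47 with Iigp1 added and 0.23 without Oasl1 and Oasl2. There the direction rests on single reads. Of the members lower in the library labelled Th1, 29 by edgeR, DESeq2 called 19, and edgeR called 23 with DESeq2 size factors and 33 with library sizes alone. The count of higher members ranged from 3 to 5 over the same settings. Over all genes DESeq2 called 2435 lower and 2382 higher, edgeR 6245 and 1567, edgeR with DESeq2 size factors 3440 and 2009, and edgeR with library sizes alone 8165 and 1098. The cause was not tested beyond the scaling itself. 22 of the 33 called members stayed called in every setting, and the 11 others, Ifit1, Ifit2, Oasl1, Stat2, Socs1, Dhx58, Iigp1, Ifitm1, Samhd1, Ifngr1 and Xaf1, each lost the call in at least 1. No called member changed sign, and leaving out any macrophage library kept all 33 calls. No member of the OPC table was called at an adjusted p under 0.1 or after adjusting again. The OPC genotypes share replicate numbers in their sample titles only. No paired analysis was possible because the deposited OPC comparison has no values per library. Depth limits the library labelled Th1, where 15 members had no read.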
